A study of Mus musculus and Rattus norvegicus with 21 samples.

Results

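Chromatin immunoprecipitation followed by sequencing (ChIP-seq) mapped the binding of the transcription factor (TF) NKX2.1 in mouse thyroid, and 19162 of its 46636 peaks (41.1%) are described here. They were chosen by peak positions alone, as the NKX2.1 peaks that overlapped no PAX8 peak and no region with H3K4me3, the histone mark of active promoters, by 1 bp or more. They are called NKX2.1-only distal peaks, where distal means outside H3K4me3. The H3K4me3 regions came from a unified list of 21821 regions, and 66150 of the 66150 H3K4me3 regions called in the 4 mouse thyroid libraries lay inside it. Since the absence of PAX8 and of H3K4me3 chose the peaks, neither is a result, and both are given as a description only.

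The classes set beside them were the 21289 NKX2.1 peaks that overlapped a PAX8 peak outside H3K4me3 (shared distal peaks) and the 21878 PAX8 peaks without NKX2.1 outside H3K4me3 (PAX8-only distal peaks). NKX2.1 and PAX8 were each profiled in 1 library of thyroid labelled as from C57BL/6 mice, genotype WT, aged 1 month and kept on a low iodine diet (LID). The H3K4me3 and H3K27me3 libraries, 1 for each group, came from 1 month old C57BL/6 mice, either Glis3 knockout (KO; allele Glis3<tm2(mCherry)Amj>, a loss of the TF GLIS3, for which the study's methods give another allele number) or WT, on the LID or on NIH-31, a normal diet (ND). For the factor libraries the study's methods also differ from the labels and name Glis3-EGFP mice (in which GLIS3 carries a fluorescent tag) that had a higher age and more time on the LID than those used for histone marks. Factor and histone regions may therefore come from different mice. The whole gland was used, and besides follicular cells it holds C cells, vessels, connective tissue and, at its edge, fat. The peak files hold positions only, with no score, so the depth of each library is unknown, weak and strong peaks count alike, and there is no replicate. Intervals below are 95% intervals (Wilson for a share, Newcombe for a difference of shares) that cover the counting of peaks of these libraries and not the variation between mice.

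NKX2.1 (also called TTF-1) is a homeodomain TF that is needed for the development of the thyroid, the lung and the ventral forebrain, and in the gland it is made by follicular cells and by C cells. PAX8 is a paired-domain TF that works with NKX2.1 at many thyroid genes. CTCF, which was not profiled here, is a zinc finger protein that binds a long, well-conserved sequence and holds chromatin loops and domain borders. H3K27me3 is placed by Polycomb repressive complexes over silent genes, many of them developmental regulators. As a check of the tissue, NKX2.1 peaks of any class were counted within 5 kb of a transcription start site (TSS). They stood at 11 of 11 genes of thyroid hormone (TH) synthesis and 4 of 8 genes induced by thyroid-stimulating hormone (TSH). They also stood at 6 of 11 genes of thyroid function and 3 of 5 thyroid TFs, against 35.4% of all genes. For the TSH, thyroid function and TF groups the study marks NKX2.1 binding within 5 kb at more genes, among them every thyroid TF listed. The reason for this difference was not tested. Among marker genes of other cells of the gland the counts were 5 of 8 for C cells, 3 of 8 for adipocytes, 2 of 6 for endothelium, 1 of 8 for skeletal muscle, 0 of 6 for immune cells and 0 of 6 for fibroblasts.

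The sequence under the NKX2.1-only distal peaks was read from the RefSeq genome of the same build (GRCm38, also called mm10). A core word of the NKX family, CTCAAG on either strand, stood in 34.5% of them (33.9 to 35.2%, 6618 of 19160 peaks on assembled chromosomes). It stood in 34.3% of shared distal peaks, in 20.7% of PAX8-only distal peaks and in 16.8% of all 8824592 windows of 300 bp tiled over the genome. The share did not differ from that of shared distal peaks beyond counting error (difference 0.21 percentage points, -0.72 to 1.14). It was 13.84 points above that of PAX8-only distal peaks (12.98 to 14.70). Those peaks were chosen to lack NKX2.1, so this second difference is tied to the choice of the classes and is a description only. The longer word CACTCAAG, which contains the core, stood in 6.18% of NKX2.1-only distal, 5.36% of shared distal and 1.53% of PAX8-only distal peaks, against 1.05% of genome windows. CACTTGAG, which contains the core on its other strand, stood in 5.63% of NKX2.1-only distal, 5.64% of shared distal and 2.18% of PAX8-only distal peaks, against 1.13% of windows.

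To show what such peaks look like, the stretches around the core are printed for the peaks within 5 kb of a TSS of Tg, which encodes thyroglobulin, the protein on which TH is made, Ret, the receptor tyrosine kinase that marks C cells, and Krt7, a keratin of simple epithelia. They are the genes of the lists examined here whose distal peak without PAX8 held the core. Each is read on the plus strand, with the core in capitals (CTTGAG is the core on the other strand).
Tg: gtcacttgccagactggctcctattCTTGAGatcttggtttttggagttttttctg
Ret: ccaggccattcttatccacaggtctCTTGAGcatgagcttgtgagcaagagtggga
Krt7: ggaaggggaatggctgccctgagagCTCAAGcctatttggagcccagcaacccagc
The Tg stretch is chr15:66667236-66667291, in a peak 3629 bp upstream of the Tg TSS, outside the gene and 770 bp from the nearest PAX8 peak. The Ret stretch is chr6:118195105-118195160, in intron 1, in a peak 2497 bp downstream of the TSS and 612 bp from a PAX8 peak. The Krt7 stretch is chr15:101415208-101415263, in intron 2, in a peak 2883 bp downstream of the TSS and 44 bp from a PAX8 peak, so that this peak lies just inside the rule's edge.

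Of the words searched, the CTCF-like one separated NKX2.1-only from shared distal peaks by most percentage points. With at most 1 mismatch to the 12 bases of the CTCF core consensus, on either strand, a match stood in 17% of NKX2.1-only distal peaks (16.4 to 17.5%, 3248 of 19160), against 4.64% of shared distal peaks, 5.0% of PAX8-only distal peaks and 2.36% of genome windows. The difference from shared distal peaks was 12.31 percentage points (11.71 to 12.91), a 3.65-fold higher share. With no mismatch, 5.27% of NKX2.1-only distal peaks held a match (1010 peaks), against 0.803% of shared distal, 1.06% of PAX8-only distal peaks and 0.142% of windows, which was 6.56 times the share of shared distal peaks and 37.1 times that of windows. Among the 3790 NKX2.1 peaks without PAX8 that lay in H3K4me3, 9.84% held a match with at most 1 mismatch and 2.11% one with no mismatch. The CTCF-like share was higher in NKX2.1-only than in shared distal peaks on 20 of 20 chromosomes, at 11.9 to 20.9% against 2.57 to 6.90%, whereas the NKX core share was higher on 10 of 20. A match is a description of the letters, and CTCF binding in these thyroids was not measured.

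The PAX word GTCANGC ran the other way. It stood in 9.73% of NKX2.1-only distal peaks, 16.2% of shared distal peaks, 23.3% of PAX8-only distal peaks and 7.53% of windows. The difference from shared distal peaks was -6.44 points (-7.09 to -5.79), and the share was lower than theirs on 20 of 20 chromosomes. Since PAX8 peaks set these classes apart, this order is tied to the choice of the peaks and is a description only. Words of other families differed little between NKX2.1-only and shared distal peaks. The AP-1 word TGANTCA stood in 14.4% of NKX2.1-only and 13.8% of shared distal peaks (8.84% of windows). The TEAD word ACATTCC stood in 6.16% of NKX2.1-only and 5.75% of shared distal peaks (4.11% of windows), and the forkhead word TNTTTAC in 16.0% of NKX2.1-only and 14.7% of shared distal peaks (19.8% of windows). The GLIS word GACCCCCCA stood in 15 NKX2.1-only and 20 shared distal peaks (0.122% of windows), and the ETS word CCGGAAGT in 63 NKX2.1-only and 61 shared distal peaks (0.183% of windows). The CRE word TGACGTCA stood in 83 NKX2.1-only and 98 shared distal peaks (0.160% of windows), and the NF1 word (TTGGC and GCCAA 5 bases apart) in 19 NKX2.1-only and 20 shared distal peaks (0.0171% of windows). Of these 7 families the interval of the difference lay away from 0 for the forkhead word alone (1.35 points, 0.64 to 2.05). The median GC content was 46.3% in NKX2.1-only distal peaks, 47.7% in shared distal peaks and 41.7% over the genome.

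**Figure D1:**
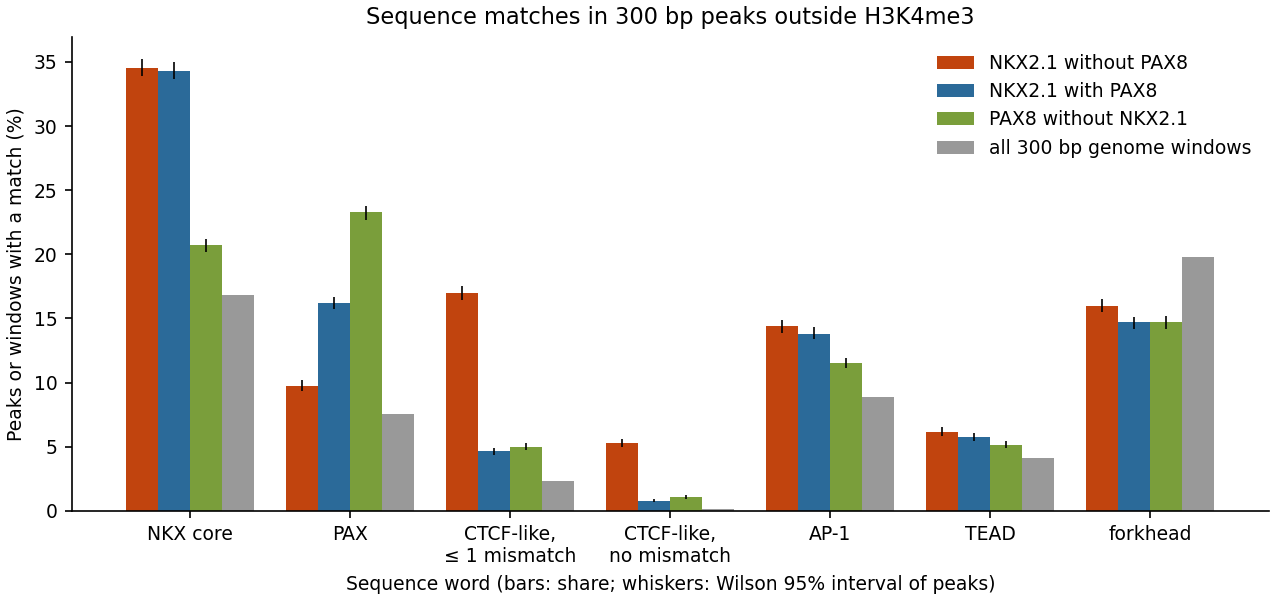
Share of 300 bp peaks outside H3K4me3 that hold each sequence word (y axis, percent), for NKX2.1 without PAX8, NKX2.1 with PAX8, PAX8 without NKX2.1 and all 300 bp windows of the genome, with Wilson 95% intervals as whiskers. The NKX core bar reaches 34.5% for NKX2.1 without PAX8 and 34.3% with PAX8, while the CTCF-like bar reaches 17% for NKX2.1 without PAX8 and 4.64% with PAX8.

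Both words were centred on the peaks. In NKX2.1-only distal peaks the core had 2.58 matches per kb in the central 80 bp, against 0.646 per kb more than 1 kb away, a ratio of 3.98, and the same ratio was 3.95 in shared distal peaks. CTCF-like matches with no mismatch had 0.402 per kb in the central 80 bp of NKX2.1-only distal peaks and 0.00746 per kb more than 1 kb away, a ratio of 54. The ratio was 7.39 in shared distal and 6.26 in PAX8-only distal peaks, and more than 1 kb away the densities were 0.00684 per kb around shared distal and 0.00812 per kb around PAX8-only distal peaks. Thus the classes differed in CTCF-like matches under the peak and hardly in the sequence around it. Of the NKX2.1-only distal peaks with a match with no mismatch, 63.3% had it in the central 100 bp. Of those with an NKX core, the core was in the central 100 bp in 55.9% (52.6 to 59.2%, n = 866) when a CTCF-like match was present and in 61.6% (60.3 to 62.8%, n = 5752) when it was not.

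**Figure D2:**
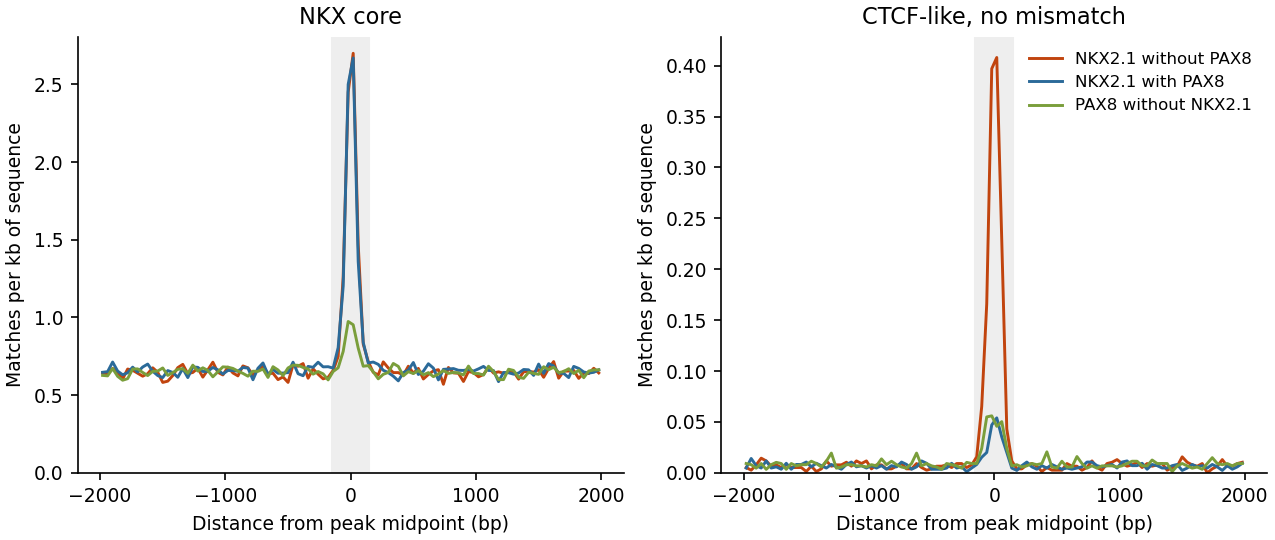
Matches per kb of sequence (y axis) in 40 bp bins by distance from the peak midpoint (x axis, bp), for the NKX core and for CTCF-like matches with no mismatch. The grey band is the 300 bp peak. The NKX core curves of both NKX2.1 classes lie on each other at the midpoint, and the CTCF-like curve of NKX2.1 without PAX8 stands above the other classes there and with them outside the band.

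The NKX core and the CTCF-like match stood together less often than apart. Of the NKX2.1-only distal peaks, 866 held both, 5752 the core alone, 2382 the CTCF-like match alone and 10160 (53.0%) neither. The core was present in 26.7% of the peaks with a CTCF-like match and in 36.1% of the others (difference -9.49 points, -11.16 to -7.77), and still above the 16.8% of genome windows. Among the 1002 peaks with exactly 1 CTCF-like match with no mismatch, 487 matches were on the plus strand and 515 on the minus strand. Of the 89 neighbouring pairs of such peaks less than 100 kb apart, 44 had the same strand, 32 had minus followed by plus and 13 had plus followed by minus.

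The 281 NKX2.1-only distal peaks with both an NKX core and a CTCF-like match with no mismatch, or with at least 2 such CTCF-like matches, were ordered by their distance to a TSS, and 5 of the nearest 10 are printed, from among those with no annotated exon in the stretch. Capitals mark the NKX core (6 bases) and the CTCF-like match (12 bases), and each stretch is read on the plus strand.
Muc1: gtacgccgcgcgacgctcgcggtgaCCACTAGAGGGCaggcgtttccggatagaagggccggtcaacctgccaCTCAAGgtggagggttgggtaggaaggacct
Slc35f3: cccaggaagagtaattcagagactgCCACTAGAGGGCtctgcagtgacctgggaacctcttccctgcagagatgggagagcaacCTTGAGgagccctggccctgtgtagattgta
Dpf1: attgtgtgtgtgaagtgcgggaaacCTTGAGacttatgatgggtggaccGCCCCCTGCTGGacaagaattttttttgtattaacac
Dlx2: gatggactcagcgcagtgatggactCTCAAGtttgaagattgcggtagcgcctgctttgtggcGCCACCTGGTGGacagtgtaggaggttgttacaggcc
Chrna3: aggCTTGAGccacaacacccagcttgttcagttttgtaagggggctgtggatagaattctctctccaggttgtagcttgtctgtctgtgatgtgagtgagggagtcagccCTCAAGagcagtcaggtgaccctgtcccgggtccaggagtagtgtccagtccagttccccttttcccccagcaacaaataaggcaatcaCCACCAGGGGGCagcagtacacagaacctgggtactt
The Muc1 stretch (chr3:89228286-89228389) is in an intergenic peak 709 bp upstream of the TSS of this cell surface mucin, 8883 bp from the nearest PAX8 peak. The Slc35f3 stretch (chr8:126297440-126297554) is in a peak 1095 bp upstream of a start site that lies inside the longest transcript of this solute carrier, where it falls in intron 2. The Dpf1 stretch (chr7:29306731-29306816) is likewise in a peak 1236 bp upstream of an inner start site and in intron 1 of the longest transcript of this subunit of a neuronal BAF chromatin remodelling complex. The Dlx2 stretch (chr2:71547963-71548062) is in an intergenic peak 1282 bp upstream of the TSS of this homeobox TF of the forebrain, and the peak lay inside an H3K27me3 region in 4 of the 4 libraries. The Chrna3 stretch (chr9:55023908-55024143), with 2 NKX cores, is in intron 3 of this nicotinic acetylcholine receptor subunit gene. Its peak was 118 bp inside an H3K27me3 border in KO-LID thyroid and 428, 506 and 162 bp outside a border in WT-LID, KO-ND and WT-ND thyroid. The other genes among the nearest 10 were Hsd17b14, Tlcd3b, Pdcd2l, Mars2 and Prkrip1, at 1043, 1269, 1857, 2278 and 3030 bp from a TSS.

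By the choice of the peaks there is no PAX8 peak over them, and the gap to the nearest one had a median of 6729 bp (quartiles 2135 and 17314 bp). Just inside the rule's edge, 306 peaks had a gap under 50 bp, and just outside it 352 NKX2.1 peaks overlapped PAX8 by at most 50 bp. Of the shared distal peaks 93.6% overlapped by at least 150 bp. As a description, the share with a CTCF-like match was 6.21% (4.01 to 9.49%) where the gap to PAX8 was under 50 bp, 6.17% (4.83 to 7.84%) from 50 to 300 bp, 10.1% from 300 bp to 1 kb, 14.7% from 1 to 5 kb, 18.6% from 5 to 20 kb and 23.1% (21.9 to 24.4%) from 20 kb up. Over the same steps the NKX core stood in 33.0 to 36.4% and the PAX word in 8.82 to 11.0%. The steps closest to PAX8 had the shares nearest to the 4.64% of shared distal peaks, and the peaks farthest from PAX8 held CTCF-like matches most often.

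**Figure D3:**
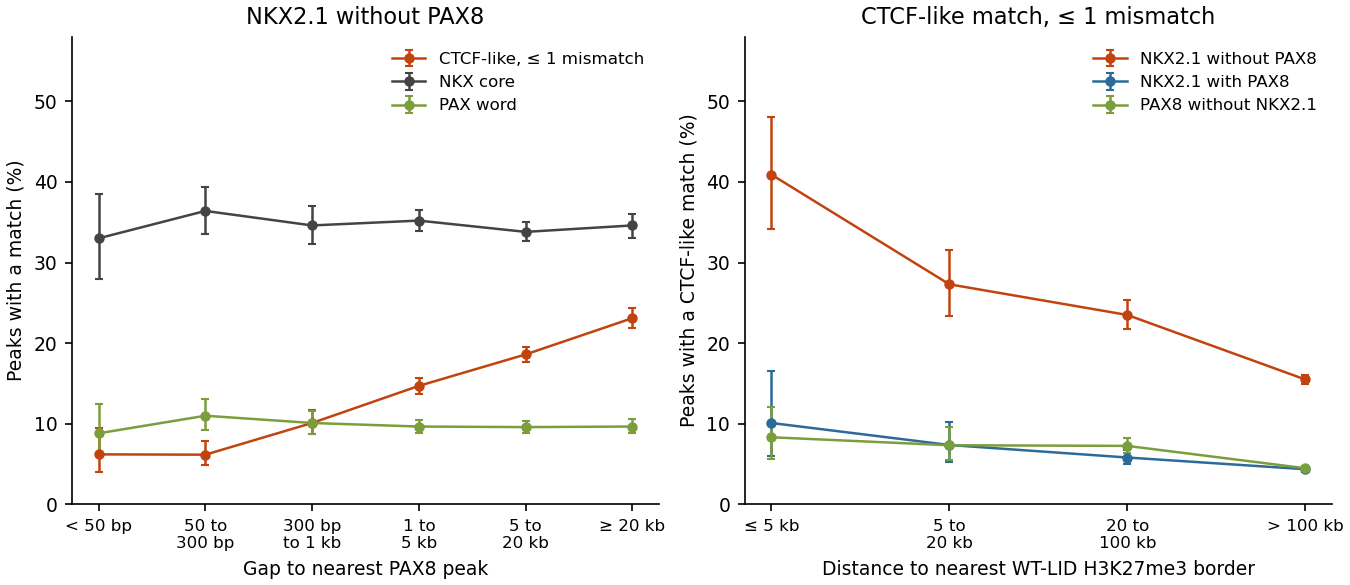
Left, share of NKX2.1 peaks without PAX8 outside H3K4me3 that hold each word (y axis, percent), by gap to the nearest PAX8 peak. Right, share of each class with a CTCF-like match with at most 1 mismatch, by distance to the nearest H3K27me3 border of WT-LID thyroid. Whiskers are Wilson 95% intervals. The CTCF-like share of NKX2.1 without PAX8 goes up to 23.1% with the gap to PAX8 while the NKX core stays between 33.0 and 36.4%, and it is 40.9% within 5 kb of a border.

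H3K27me3 lay over few of the NKX2.1-only distal peaks. In total 289 of them overlapped an H3K27me3 region in some library and 18873 in none. Of the 289, 226 did so in KO-LID thyroid alone, 45 in a WT library and 11 in all 4 libraries. The KO-LID list was also far longer than the others, with 18040 regions over 55.11 Mb, against 2631 in WT-LID, 4116 in KO-ND and 3050 in WT-ND thyroid over 7.50, 13.26 and 7.47 Mb. With 1 library each, the effect of genotype and that of the library cannot be told apart. In WT-LID thyroid 24 NKX2.1-only distal peaks (0.125%) overlapped H3K27me3, against 9 shared distal peaks (0.0423%, difference 0.08 points, 0.03 to 0.15) and 76 PAX8-only distal peaks (0.347%, difference -0.22, -0.32 to -0.13). NKX2.1-only distal peaks thus lay in H3K27me3 more often than shared distal and less often than PAX8-only distal peaks, and this order was found with each of the 4 lists.

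Around the borders of H3K27me3 regions, the peaks were set against the length of sequence outside H3K4me3 in each step of distance. There were 7.51 NKX2.1-only distal peaks per Mb in the 2 kb outside a WT-LID border and 4.26 per Mb in the first 2 kb inside it (69 and 14 peaks). For shared distal peaks the density was 5.34 per Mb outside and 0.609 per Mb inside (49 and 2 peaks), and for PAX8-only distal peaks 10.9 per Mb outside and 11.3 per Mb inside (100 and 37 peaks). In KO-LID thyroid the density of NKX2.1-only distal peaks was 9.32 per Mb in the 2 kb outside and 4.80 per Mb in the 2 kb inside (614 and 155 peaks), and that of shared distal peaks 7.91 per Mb outside and 2.78 per Mb inside (521 and 90 peaks). More than 50 kb outside any border, NKX2.1-only distal peaks had 6.79 per Mb in KO-LID and 7.53 per Mb in WT-LID thyroid. The 2 kb outside a border held more per Mb than this with the KO-LID list and about as many with the WT-LID list. Their density was highest from 20 to 50 kb outside, at 10.7 per Mb in KO-LID and 9.34 per Mb in WT-LID thyroid, and not at the border. With the KO-LID list, PAX8-only distal peaks also had more per Mb in the 2 kb outside than beyond 50 kb (11.3 and 7.23). Shared distal peaks had about as many (7.91 and 7.73). Within 5 kb of a WT-LID border, on either side, stood 0.971% of NKX2.1-only distal peaks and 0.606% of shared distal peaks (difference 0.36 points, 0.19 to 0.54). The share was higher for PAX8-only distal peaks, at 1.32% (NKX2.1-only minus PAX8-only -0.35 points, -0.55 to -0.14). With the longer KO-LID list the shares were 7.81% for NKX2.1-only, 6.36% for shared and 9.45% for PAX8-only distal peaks. NKX2.1-only distal peaks then differed by 1.45 points from shared (0.95 to 1.95) and by -1.64 points from PAX8-only distal peaks (-2.18 to -1.10).

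The NKX2.1-only distal peaks near a border were rich in CTCF-like matches. Of the 186 peaks within 5 kb of a WT-LID border, 76 (40.9%, 34.1 to 48.0%) held a match with at most 1 mismatch and 33 (17.7%) one with no mismatch. The share was 27.3% from 5 to 20 kb, 23.5% from 20 to 100 kb and 15.5% (14.9 to 16.0%) beyond 100 kb. For shared distal peaks it was 10.1% (5.98 to 16.5%, 13 of 129) within 5 kb and 4.37% beyond 100 kb, and for PAX8-only distal peaks 8.33% and 4.49%. With the borders of the other libraries the share of NKX2.1-only distal peaks within 5 kb was 30.4% in KO-LID (455 of 1496), 31.7% in KO-ND (100 of 315) and 34.1% in WT-ND thyroid (76 of 223). Read from the matches, 18.2% of the NKX2.1-only distal peaks with a CTCF-like match with no mismatch lay within 5 kb of a KO-LID border, against 6.54% of those without a match (difference 11.68 points, 9.38 to 14.20). Within 5 kb of a WT-LID border lay 3.27% of those with such a match and 0.691% of those without (difference 2.58 points, 1.63 to 3.87). The CTCF-like share also varied with the distance to genes, and the part of this in the result at borders was not tested. Within 5 kb of a TSS it was 19.8% of NKX2.1-only and 6.22% of shared distal peaks, and beyond 200 kb it was 11.3% of NKX2.1-only and 3.29% of shared distal peaks.

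Across the 4 libraries, 32 NKX2.1-only distal peaks lay inside H3K27me3 or within 1 kb of a border in each of them. Among the 10 that lay closest to a border were peaks nearest to Mafa, Fcgr1, Cabp7, Dpf1, Col13a1, Ahnak2, Rhbg, Ptf1a and Fev. Of these genes, Mafa, Ptf1a and Fev are developmental TFs of pancreas, pancreas and cerebellum, and serotonergic neurons. The peak near Mafa (chr15:75740442-75740741) was 10876 bp and 2 bp inside a border in KO-LID and WT-LID thyroid and 3973 and 192 bp inside one in KO-ND and WT-ND thyroid. The peak near Col13a1, a transmembrane collagen, lay 1521 bp upstream of its TSS (chr10:61980480-61980779) and held a CTCF-like match with no mismatch. It was 63 bp inside a border in KO-LID and 86, 695 and 633 bp outside one in WT-LID, KO-ND and WT-ND thyroid, so a border lay within 695 bp of its midpoint in all 4 groups.

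The NKX2.1-only distal peaks were spaced more widely than shared distal peaks and much like PAX8-only distal peaks. The median distance to the nearest other peak of the class was 21502 bp for NKX2.1-only distal peaks (quartiles 8273 and 50257 bp). It was 14891 bp for shared distal and 20111 bp for PAX8-only distal peaks. Another peak of the same class stood within 10 kb for 29.3% of NKX2.1-only distal peaks (28.7 to 30.0%). The share was 38.8% for shared distal peaks (difference -9.43 points, -10.35 to -8.51) and 31.4% for PAX8-only distal peaks. How far any class departs from an even scatter over the genome was not tested. The classes also differ in size, which bears on their spacing. Joined at steps of at most 10 kb, the NKX2.1-only distal peaks formed 16067 runs. Of these runs, 13543 were 1 peak alone and 461 had 3 or more peaks. Such runs of 3 or more held 7.79% of NKX2.1-only distal peaks and 13.3% of shared distal peaks, and the largest had 7 peaks in each class. Peaks with a CTCF-like match stood alone more often, as 23.0% of them and 30.6% of those without had another NKX2.1-only distal peak within 10 kb (difference -7.62 points, -9.21 to -5.98).

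**Figure D4:**
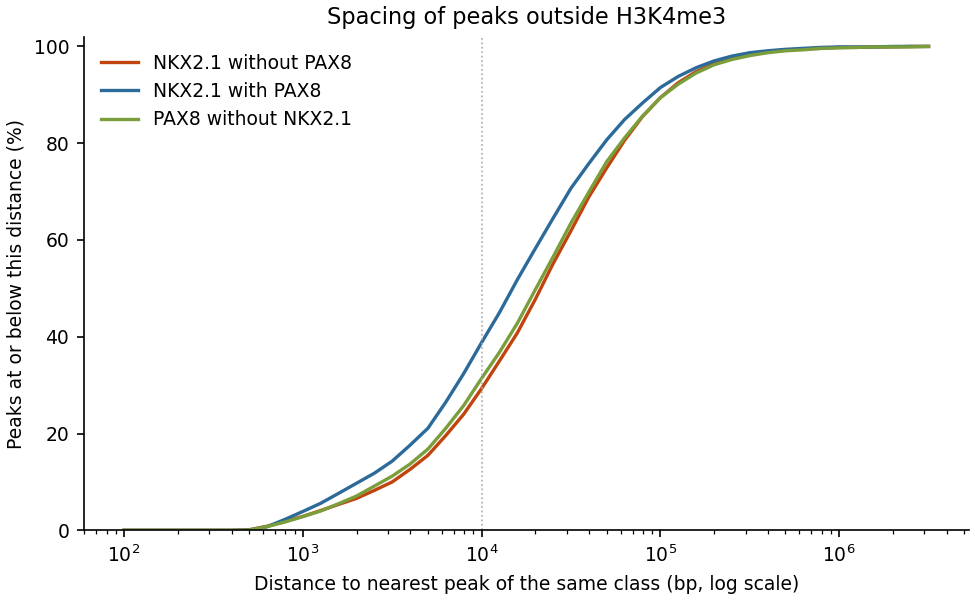
Cumulative share of peaks (y axis, percent) by distance to the nearest peak of the same class (x axis, bp, log scale), outside H3K4me3. At 10 kb, marked by the dotted line, the curve of NKX2.1 without PAX8 is at 29.3% and that of NKX2.1 with PAX8 at 38.8%.

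The largest run held 7 peaks over 25207 bp (chr5:146290309-146315515) in and beside Cdk8, a kinase of the Mediator complex, with 1 PAX8 peak and 0 shared distal peaks in the same span. Runs of 6 stood in Mon2, a gene of endosome to Golgi trafficking (chr10:123048674-123063214, 14541 bp), and in Pdlim5, a PDZ and LIM domain protein (chr3:142307984-142341208, 33225 bp). The Pdlim5 span also held 2 shared distal peaks. There were 18 runs of 5 peaks. The first 7 of these by chromosome name sorted as text and then by position, an arbitrary choice among equals, were nearest to Lrrc9, Elmo1, Gtf2h2, Asap1, Memo1, Greb1l and Setbp1. Over all 21 runs of 5 or more, with 109 peaks, 13 runs held 0 shared distal peaks in their span and 4 held 0 PAX8 peaks. Of the 109 peaks, 5 held a CTCF-like match with at most 1 mismatch and 40 held the NKX core.

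Most NKX2.1-only distal peaks lay in gene bodies, as shared distal peaks did. Gene bodies of protein-coding genes held 55.5% of them (54.8 to 56.2%) and 56.2% of shared distal peaks (difference -0.67 points, -1.64 to 0.30), and an exon held 2.99% of NKX2.1-only and 3.8% of shared distal peaks. More than 50 kb from the TSS of any protein-coding gene lay 38.2% of NKX2.1-only and 41.3% of shared distal peaks (difference -3.17 points, -4.13 to -2.22), and within 5 kb lay 10.8% of NKX2.1-only and 8.83% of shared distal peaks. The median distance to a TSS was 32555 bp for NKX2.1-only distal and 37062 bp for shared distal peaks. Peaks with a CTCF-like match were less often in gene bodies, at 48.7% against 56.9% of those without (difference -8.22 points, -10.10 to -6.33), and less often more than 50 kb from a TSS, at 30.4% against 39.8%. Sequence annotated as repeat made up most of 6.71% of NKX2.1-only distal peaks and of 3.29% of shared distal peaks. Among NKX2.1-only distal peaks it did so in 10.6% of peaks with a CTCF-like match with at most 1 mismatch and in 3.56% of those with a match with no mismatch, against 5.91% of those without. On the X chromosome 55.1% of the distal NKX2.1 peaks lacked PAX8, against 45.2 to 50.2% on the autosomes. The 5 peaks farthest from a TSS were nearest to Tenm3 (2355428 and 1983334 bp), Slc39a10 (1955789 bp), Pik3c3 (1801898 bp) and G6pd2 (1800846 bp).

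Of 21000 protein-coding genes, 2100 (10%) had an NKX2.1-only distal peak within 5 kb of a TSS. In 1314 of them it was the sole kind of NKX2.1 peak there, and 852 had no PAX8 peak of any kind within 5 kb. The background share of 10% is the one against which the lists below are to be read. By nearest TSS, 8212 genes (39.1%) were nearest to at least 1 peak, 930 to 5 or more, and 140 to 10 or more, and these 140 took 1751 of the peaks.

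The genes that were nearest to most NKX2.1-only distal peaks were large genes or genes in wide intergenic stretches. Magi1, a scaffold protein of tight junctions (chr6:93675453-94283917), was nearest to 31, of which 23 lay in its body and 15 held the NKX core, and to 24 shared distal peaks. Adgrl2, an adhesion G protein-coupled receptor of the latrophilin family, was nearest to 26 and to 32 shared distal peaks, with 1 of the 26 in its body. Sox9, a TF of the SOX family, was nearest to 24, none in its short body and the closest 32105 bp from its TSS, and to 27 shared distal peaks. Myc, the proto-oncogene TF, was nearest to 20, the closest at 58603 bp and the farthest at 817689 bp, and to 21 shared distal peaks. Zbtb20, a zinc finger TF, was nearest to 19 and to 10 shared distal peaks, and 17 of the 19 lay in its body. The other genes of the first 15 were Lpp and Mecom (20 each), Plpp3 (19), Foxp1, Pik3r1, Rora, Zfp36l1 and Zfp521 (18 each), Setbp1 (17) and Celf2 (16), and for these the counts of shared distal peaks were 16 to 23. Per 100 kb of sequence nearest to the gene, the counts ran from 0.762 for Celf2 to 3.74 for Zfp36l1, an mRNA decay factor. Over the genome the figure was 0.724. Since the 15 genes were chosen for their many peaks, a density above that of the genome is tied to the choice. It is a description only. Of the 15 genes, shared distal peaks outnumbered NKX2.1-only distal peaks at 10, and the reverse held at Magi1 and Zbtb20. The CTCF-like match was rare among these peaks, with 0 to 2 for each gene.

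**Figure D5:**
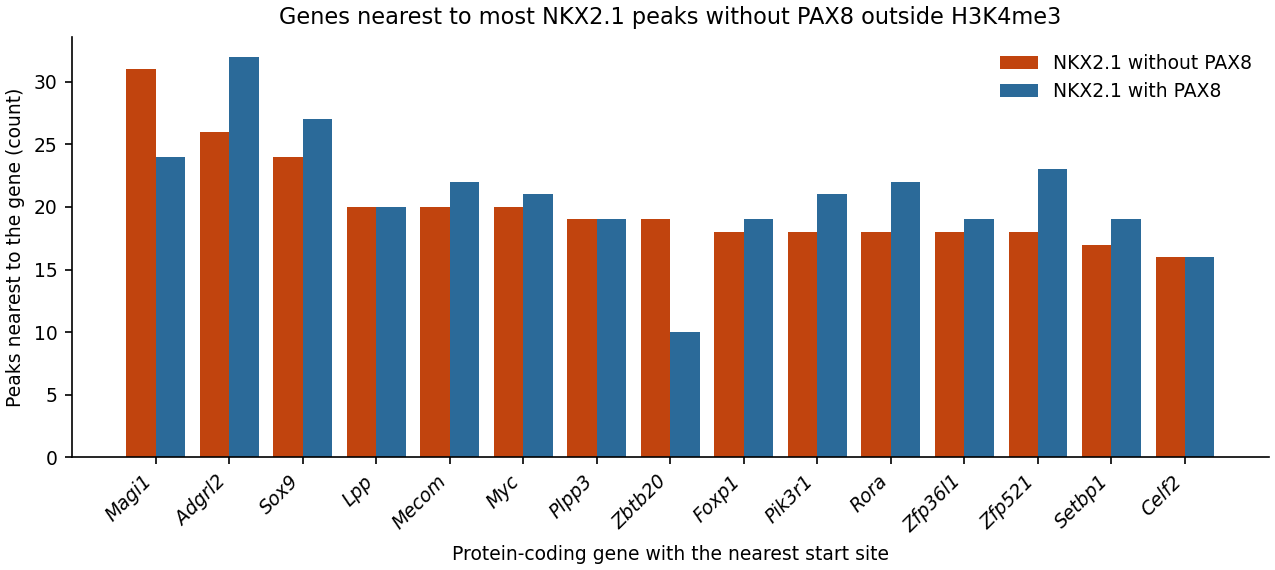
Number of peaks (y axis, count) outside H3K4me3 that are nearest to each of the 15 genes with most NKX2.1 peaks without PAX8, with the number of NKX2.1 peaks with PAX8 beside it. Magi1 (31 without and 24 with PAX8) and Zbtb20 (19 without and 10 with PAX8) have more peaks without PAX8 than with it.

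Of the 35 genes in the 4 lists of thyroid genes, 3 (8.57%) had an NKX2.1-only distal peak within 5 kb of a TSS, close to the share of all genes. They were 1 of 11 genes of TH synthesis (Tg), 0 of 8 genes induced by TSH, 2 of 11 genes of thyroid function (Dio2 and Txnrd1) and 0 of 5 thyroid TFs. A shared distal peak stood within 5 kb of 6 of the 11 genes of TH synthesis, 2 of 8 induced by TSH, 1 of 11 of thyroid function and 0 of 5 thyroid TFs, against 8.93% of all genes. Dio2, the deiodinase that turns thyroxine into the active hormone, had its peak 1643 bp upstream of the TSS (chr12:90740532-90740831), 136528 bp from the nearest PAX8 peak. The Dio2 peak held a CTCF-like match with 1 mismatch and no NKX core. The study marks no NKX2.1 binding within 5 kb of Dio2. Txnrd1, a thioredoxin reductase, had its peak 4080 bp upstream of its nearest start site, in intron 1 of its longest transcript (chr10:82854977-82855276), with neither word.

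In the other lists the counts were 2 of 21 genes of the extracellular matrix (Col13a1, and Col18a1 with 2 peaks), 1 of 8 of inflammation (Il6), 2 of 8 of lung epithelium (Abca3 and Sftpa1), 1 of 12 of epithelial adhesion (Krt7), 2 of 8 of adipocytes (Adipoq, and Cidec with 2 peaks) and 1 of 39 Hox genes (Hoxa13). Genes of the forebrain field of Nkx2-1, endothelium, immune cells, fibroblasts and skeletal muscle had 0 of 8, 0 of 6, 0 of 6, 0 of 6 and 0 of 8. The peaks at Il6, a cytokine, and at Sftpa1, a surfactant protein of the lung, each held a CTCF-like match with no mismatch. The Il6 peak was at chr5:30014617-30014916 in intron 2 and the Sftpa1 peak at chr14:41128027-41128326, 3612 bp upstream of the TSS. The study marks no NKX2.1 binding within 5 kb of Il6. The Sftpa1 peak was 106466 bp from the nearest PAX8 peak.

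The C cell list had the highest share, with 4 of 8 genes (Chga, Gfra4, Ret and Scg2), against 10% of all genes. A shared distal peak stood within 5 kb of 0 of these 8 genes, against 8.93% of all genes, and 0 was also the count for the lists of thyroid TFs, endothelium, immune cells, fibroblasts and Hox genes. The list is short, and no test was run on it. Chga encodes chromogranin A and Scg2 secretogranin II, both proteins of secretory granules, Ret is a receptor tyrosine kinase and Gfra4 encodes a co-receptor of it. The Scg2 peak lay over the TSS, its midpoint 3 bp upstream (chr1:79439880-79440179), without H3K4me3 in any of the 4 libraries and 5515 bp from the nearest PAX8 peak. The Chga peak was 4266 bp upstream of the TSS and outside the gene (chr12:102550526-102550825), 17429 bp from a PAX8 peak. It was 65 bp outside an H3K27me3 border in KO-LID, 3775 bp outside one in KO-ND and 3385 bp outside one in WT-ND thyroid, while in WT-LID thyroid the nearest border was 397672 bp away. The Gfra4 peak was 2397 bp upstream of the TSS (chr2:131045336-131045635) and only 16 bp from a PAX8 peak, and the Ret peak was 612 bp from one. Among marker lists of other cells of the gland, 2 of 8 adipocyte genes and 0 endothelial, immune, fibroblast or skeletal muscle genes had such a peak, and the part of C cells in these peaks was not tested.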

How the data were processed

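Thyroid ChIP-seq was deposited by the authors as peak positions (BED files, a unit of position without counts or score) on mm10. The submitters' processing notes name Cutadapt 1.12, Bowtie 1.2, Picard 1.110, HOMER 4.10.3 and bedtools 2.24.0. The study's methods state that each factor library was compared with its own input for peak calling and that histone marks were called as broad regions. The deposited NKX2.1 and PAX8 lists are both longer than those the study's text describes, and with no score they could not be filtered, so a shorter PAX8 list would leave other NKX2.1 peaks without PAX8. The rat lists were not used here, and 0 columns of other samples were left out.

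Peaks were 300 bp wide and shared when overlapping by at least 1 bp. Python 3.11.15 with numpy 2.4.6, pandas 2.3.3 and matplotlib 3.10.9 was used. Words were searched on both strands of the RefSeq GRCm38.p6 genome, on the 19160 peaks of assembled chromosomes, and the search, overlap and interval code was tested on simulated data. Genes were curated protein-coding RefSeq genes, and intron numbers refer to the longest transcript. A border is an edge of an H3K27me3 region, and distances run from peak midpoints. Counts of list genes take any peak overlapping the 5 kb window.

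The peaks, words and 16 gene lists were chosen with earlier results of these data known. Several lists follow groups the study named on these samples. Named genes were the 15 nearest to most peaks, list genes with a peak within 5 kb of a TSS (thyroid lists in full, up to 4 of each other list), genes of the 10 largest runs (ties by chromosome name as text, then position), of 10 peaks at H3K27me3 in all 4 libraries, of 10 with the words described, and of the 5 farthest peaks. An item that this rule names is not reported here. No test over animals was possible. Alternatives were another overlap (150 bp), a PAX8 distance of 1 kb, other promoter definitions, autosomes, other words, windows and H3K27me3 lists.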

Additional observations from a re-analysis of the deposited data

How the results depend on the processing

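Over 9 results and 64 values under alternative settings, 59 were alike. This means that an interval away from 0 stayed on its side, an interval that held 0 still held it, or a count stayed within 1.5 times. A reversal could be counted only where the main interval lay away from 0, and 0 values reversed. The CTCF-like difference between NKX2.1-only and shared distal peaks stayed away from 0 under every setting tried, including a match with no mismatch. With the longer NKX words in place of the core, the difference in share was 0.86 percentage points (0.26 to 1.46) and its interval lay above 0. The difference in gene bodies was -1.35 points (-2.36 to -0.33) without peaks within 1 kb of PAX8 and -0.98 points (-1.93 to -0.02) with the WT-LID H3K4me3 list alone, and both intervals lay below 0. The number of genes with an NKX2.1-only distal peak depends on the window, with 335 genes for 1 kb and 6819 for 20 kb. No paired analysis was possible because each group has 1 library. No library could be left out for the same reason, the depth of the libraries is unknown, and the lists hold no score by which a stricter threshold could be set.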
